A study of Mus musculus with 6 samples.

Results

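The Grik2 domain is a stretch of mouse chromosome 10, from 48768946 to 50032298 in build mm9, that held ATAC-seq peaks in 2 pro-B cell lines and none in another. ATAC-seq cuts and tags open DNA with a transposase, so that a peak marks accessible chromatin. Its members are the peaks that overlap a window of 1.6 Mb around it in the 6 deposited peak lists. Merged where they overlapped by at least 1 bp, they gave 48 regions of the 149724 regions of all chromosomes, and 44 of the 48 lay in the stretch itself. The stretch was chosen by the presence and absence of peaks in these same lists, none in CBE_1 and many in CBE_2 and WT, so its emptiness in CBE_1 is described here and not tested.

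The libraries came from pro-B cell lines of strain 129SV and bone marrow origin, grown in culture without treatment, and all were RAG2-deficient, the WT line included. CBE_1 and CBE_2 are the lines labelled CBE-/-(1) and CBE-/-(2), with IGCR1-mutated IgH alleles (genotype IGCR1-/-), and WT carries the unmutated IgH alleles. IGCR1 is a control region of the immunoglobulin heavy chain locus, on another chromosome. Each line gave 2 libraries of 200000 cells and 11 PCR cycles, and no label says that the 2 came from separate cultures, so the spread between them may be technical. The stretch sets CBE_1 apart from CBE_2, which has the same genotype label, and WT is a single line, so a difference between CBE_2 and WT cannot be told apart from one between 2 cell lines of any kind. The lists held 72318 and 80242 peaks in CBE_1, 94665 and 97522 in CBE_2, and 112241 and 106056 in WT. Read depth is unknown. No mm9 gene positions were used, so the pro-B identity of the lines was not checked against marker genes here.

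Grik2 encodes GluK2, a pore-forming subunit of kainate receptors, the glutamate-gated ion channels that carry and tune signals at synapses of the brain. It is known mainly as a gene of neurons. In the gene order of the build GRCm38.p6, the nearest protein-coding genes are Hace1, a ubiquitin ligase, on one side and Ascc3, a helicase of the ASCC complex, on the other. Between Grik2 and Ascc3 that table lists 6 further genes, of which 3 are lncRNA genes and 3 are pseudogenes. Between Hace1 and Grik2 it lists 15 further genes. Gene positions of that build were not set beside the mm9 peaks, so which peaks lie in Grik2 and which beside it was not determined.

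The promoter of Grik2 is shown because the domain is named for this gene. It is 300 bases long, from 250 bases before to 50 bases after the gene's start, on the minus strand of GRCm38.p6 at chr10:49788705-49789004 (RefSeq). These coordinates are not comparable with the mm9 positions of the peaks, and no peak was assigned to this sequence. Capitals mark each CG pair, the CpG sites that methylation acts on.
Grik2 promoter: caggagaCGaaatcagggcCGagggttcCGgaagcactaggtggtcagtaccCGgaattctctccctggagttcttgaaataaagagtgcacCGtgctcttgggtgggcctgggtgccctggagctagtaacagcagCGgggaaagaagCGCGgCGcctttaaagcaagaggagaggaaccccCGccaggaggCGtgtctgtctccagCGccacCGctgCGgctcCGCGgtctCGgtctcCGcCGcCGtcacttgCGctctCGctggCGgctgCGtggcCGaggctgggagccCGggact
It holds 26 CpG sites and 64.7% G and C, against medians of 7 CpG sites and 52.7% over 32851 promoters of the same length. Of all these promoters 16.9% held at least as many CpG sites.

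In CBE_1 the Grik2 stretch had no peak in either library. CBE_2 had 26 and 27 peaks there, and WT had 38 and 37. The CBE_2 and WT counts did not overlap, and within each line the 2 libraries differed by 1 peak. In the full lists this is a density of 20.6 and 21.4 peaks per Mb in CBE_2 and of 30.1 and 29.3 in WT. Over the whole genome the density was 27.4 and 30.4 peaks per Mb in CBE_1, 35.9 and 37.0 in CBE_2, and 42.5 and 40.2 in WT. The stretch was thus sparser than the genome in all 4 libraries that had peaks in it. Its peaks made up 0.0275% and 0.0277% of the CBE_2 lists, against 0.0339% and 0.0349% of the WT lists. They covered 12.9 and 11.8 kb in CBE_2 and 19.6 and 19.1 kb in WT. The lists differ in length, and with every list cut to its 72318 most significant peaks CBE_2 had 22 and 19 peaks in the stretch and WT 22 and 20, so that the counts overlapped.

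**Figure D1:**
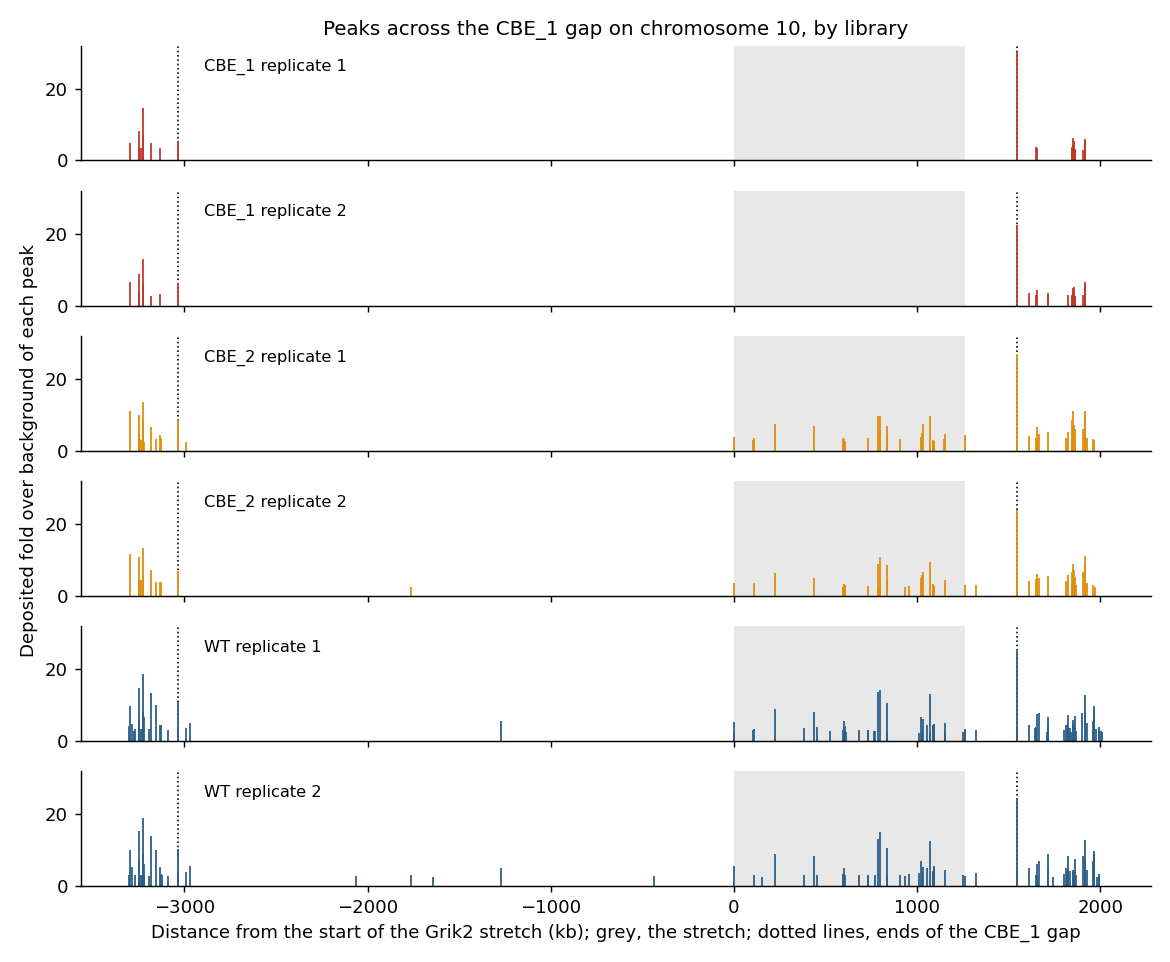
Each vertical line is 1 peak, placed by its distance in kb from the start of the Grik2 stretch, with the deposited fold over background as its height, in 1 panel per library. The grey stretch is empty in both CBE_1 panels and holds 26 and 27 peaks in CBE_2 and 38 and 37 in WT, and the dotted lines mark the ends of the CBE_1 gap.

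Of the 44 regions of the stretch, 19 were present in all 4 CBE_2 and WT lists and missing from both CBE_1 lists. That pattern held for 5.05% of all regions of the genome. Of the 62351 regions present in all 4 of these lists, 12.1% were missing from both CBE_1 lists, and on chromosome 10 the share was 16.6%. The rule that chose the stretch used this contrast, so nothing is read from these shares. The remaining 25 regions were found in part of the 4 lists. A group of 3 was in 3 lists and another 14 were in 2 lists. The last 8 were in a single library, 1 of them in a CBE_2 library and 7 in a WT library.

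No region of the stretch was present in both CBE_2 lists and absent from both WT lists, where 6.75% of all regions missing from CBE_1 had that pattern. The 44 regions are few and neighbours may not be independent, so no lack of such regions is read from the count of 0. The reverse pattern, absent from both CBE_2 lists and present in both WT lists, held for 9 regions or 20.5%, close to the 18.7% of all regions missing from CBE_1. These 9 were weak to middling, with folds of 2.27 to 4.33 in WT replicate 1 and 2.97 to 5.05 in WT replicate 2. The fold is the authors' own value for the height of a peak over the background of its library. It was used to describe peaks and to rank them within a list. Where folds of different libraries are set side by side, they may not share a scale, since read depth is unknown.

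The stretch was part of a longer CBE_1 gap. In CBE_1 no peak lay between 45732172 and 50311459, a distance of 4579 kb, of which the stretch takes 1263 kb. Most of the gap, 3037 kb on the proximal (centromeric) side, was nearly free of peaks in every line. There CBE_2 had 1 peak in each library, and WT had 5 and 8. On the distal (telomeric) side, the 279 kb between the stretch and the first CBE_1 peak held 0 and 1 peaks in CBE_2 and 2 and 1 in WT. The peaks of these flanking parts formed 12 regions, none of them in both CBE_2 lists and 5 in both WT lists. The WT lists were longer, and the shares of all regions with these patterns are not given here. Nothing is therefore read from these counts. The highest fold of the 12 regions was 5.63, at 47494731 to 47495189 in WT replicate 1. The point where CBE_1 parts from the other lines can therefore be placed no more closely than 3037 kb on the proximal side and 279 kb on the distal side.

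The border of the stretch itself was set by regions that all CBE_2 and WT lists share. The first, at 48768946 to 48770576, had folds of 3.92 and 3.54 in CBE_2, against 5.30 and 5.71 in WT. Just outside it, WT replicate 1 had a peak of 200 bp at 48768524 to 48768723 with a fold of 2.27, which no other library shared. The last one, at 50031808 to 50032298, showed folds of 4.29 and 3.11 in CBE_2 and 3.14 and 2.86 in WT. Its outer neighbour at 50032454 to 50032836 was again a peak of WT replicate 1 without a counterpart, and its fold was 3.35.

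Outside the gap CBE_1 shared most regions of the other lines, but not all. Of the regions present in all 4 CBE_2 and WT lists, 4 of 35 (11.4%) in the 1 Mb before the gap were missing from both CBE_1 lists. In the 1 Mb after it 6 of 24 (25.0%) were missing. The share was 12.1% over all chromosomes and 16.6% on chromosome 10, and the flanks were not tested against it. The first region after the gap, at 50311024 to 50313571, lay 278.7 kb beyond the stretch and was 2548 bp wide. Its folds were 30.3 and 22.6 in CBE_1, 26.6 and 23.9 in CBE_2, and 25.6 and 24.3 in WT. It stood at the 97.3 and 97.2 percentiles of the CBE_1 lists, the 99.6 and 99.4 percentiles of the CBE_2 lists and the 99.6 and 99.1 percentiles of the WT lists. Its rank was thus near the top of every list. The next shared region of the other lines, at 50314638 to 50314949, had no CBE_1 peak, with folds of 3.07 and 3.65 in CBE_2 and 3.79 and 4.39 in WT. The next regions that did hold a CBE_1 peak were weak to middling, between the 24.8 and 57.3 percentiles of the lists that held them. The region at 50377159 to 50377490 was missing from CBE_1 replicate 1 and had a fold of 3.65 in CBE_1 replicate 2, against 4.05 and 4.08 in CBE_2 and 4.44 and 4.94 in WT. The fold at 50418593 to 50419179 was 3.77 and 3.02 in CBE_1, 3.56 and 4.72 in CBE_2, and 4.00 and 3.19 in WT, so the lines overlapped there.

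On the proximal side the last region with a CBE_1 peak, at 45731563 to 45732339, lay 3037 kb before the stretch. It stood at the 57.7 and 66.4 percentiles in CBE_1, the 75.1 and 70.0 percentiles in CBE_2 and the 82.8 and 80.4 percentiles in WT. Both CBE_1 libraries ranked it below all 4 others. The same order was seen at 45585197 to 45586066, with percentiles of 52.4 and 16.6 in CBE_1, 67.1 and 71.5 in CBE_2, and 87.4 and 87.4 in WT. At 45636659 to 45637162 the percentiles were 29.8 and 31.5 in CBE_1, 49.7 and 44.2 in CBE_2, and 55.6 and 61.0 in WT. The lists differ in length, and the share of all regions with this order is not given here. The order is therefore not read as particular to these regions. In the 1 Mb before the gap CBE_1 had 31 and 33 peaks, CBE_2 50 and 50, and WT 68 and 70. In the 1 Mb after it CBE_1 had 18 and 24, CBE_2 32 and 35, and WT 60 and 49. CBE_1 was sparser than the other lines in both flanks, but did not lack peaks as it did between them.

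The 4579 kb gap was the 9th longest of the 87895 gaps between neighbouring CBE_1 peaks, taking both libraries together. Gaps at least as long as the stretch numbered 197 in CBE_1, 125 in CBE_2 and 70 in WT. By the number of regions that the 4 other lists share, 19, it ranked first among CBE_1 gaps. The second, 197.9 kb on chromosome 6 at 113841647 to 114039554, held 16. The third, 906.1 kb at 8694120 to 9600213 on chromosome 10, held 10. Counted by regions in at least 1 of the 4 lists it ranked 4th, with 56. Of the CBE_1 gaps at least as long as the stretch, 81 held no region that the 4 lists share, and the highest count after this one was 4. In the same measure the fullest CBE_2 gap held 6 regions of the 4 other lists, and the fullest WT gap held 9. The stretch was chosen by this same contrast, so the rank is a description and no test. The CBE_1 lists were also the shortest, so the gaps of the lines are not on equal terms.

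The genome was also divided into 2078 tiles of the length of the stretch, laid end to end from the start of each chromosome. Apart from the 2 tiles that overlap the stretch, those with at least as many peaks as the stretch in each CBE_2 and WT list numbered 1058. None of the 1058 lacked CBE_1 peaks, and the lowest counts in them were 4 for CBE_1 replicate 1 and 5 for CBE_1 replicate 2, with medians of 50 and 57. The stretch was chosen for its lack of CBE_1 peaks, and its ends were set on regions that all CBE_2 and WT lists share. Tiles were not placed in this way, so these counts describe the genome and are no test of the stretch. Tiles without a CBE_1 peak numbered 185, against 122 without a CBE_2 peak and 87 without a WT peak. Leaving out the 1 that overlaps the stretch, the CBE_1-empty tiles had a median of 14.5 peaks or fewer over the CBE_2 and WT lists, against 32 in the stretch.

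**Figure D2:**
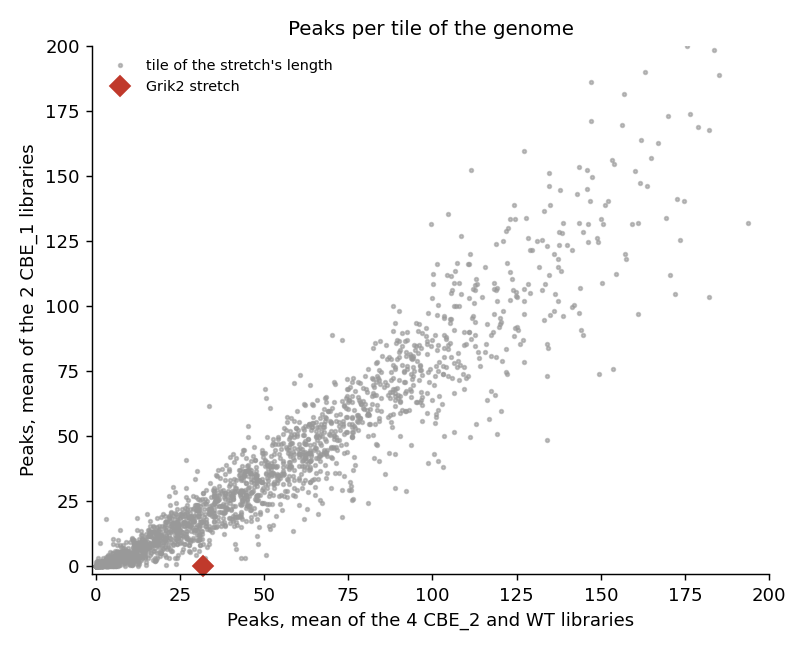
Each grey point is 1 tile of the genome that has the length of the stretch and does not overlap it, and the red diamond is the Grik2 stretch, with the mean number of peaks in the 2 CBE_1 libraries on the vertical axis and in the 4 CBE_2 and WT libraries on the horizontal axis. The stretch lies at 0 in CBE_1 and at 32 in the other lines, and 15 tiles beyond 200 peaks on either axis are not drawn.

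The share of regions missing from CBE_1 was lower among stronger regions. Each of the 62351 regions was given its lowest percentile over the 4 CBE_2 and WT lists. Below the 25th percentile 39.3% were missing from both CBE_1 lists, between the 25th and 50th 18.6%, between the 50th and 75th 3.98%, and at the 75th or above 0.402%. Of the 19 shared regions of the stretch, 6, 5, 5 and 3 fell in these classes, from weak to strong, all of them missing by the choice of the stretch. The strongest class held 80 missing regions in the genome, of which 3 lay in the stretch. By chromosome, the highest counts were 11 on chromosome 6 and 10 on chromosome 10, the 3 of the stretch included. The number of strong regions on each chromosome is not given here, so these counts are not shares.

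**Figure D3:**
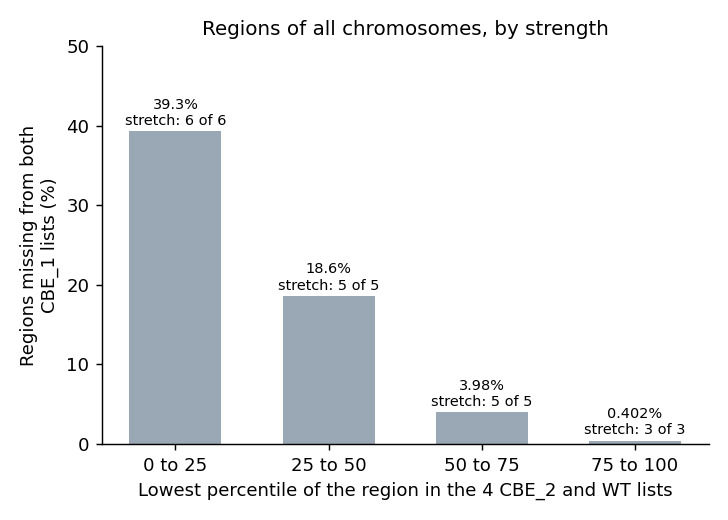
Bars give the percentage of regions present in all 4 CBE_2 and WT lists that were missing from both CBE_1 lists, for 4 classes of the lowest percentile in those lists. The share falls from 39.3% in the weakest class to 0.402% in the strongest, and the numbers above each bar give the regions of the stretch in that class.

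A list has an entry only where a peak passed the authors' threshold, with the lowest fold in the CBE_1 lists at 2.26 and 2.08. DNA lost from the CBE_1 line, and DNA that is kept but closed, would both leave the stretch empty in such a list, and cannot be told apart here. The stretch held no CBE_1 peak in the lists as deposited, which go down to these weakest entries, and none in either library alone.

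Most peaks of the stretch lay on the distal side of its midpoint. Beyond the midpoint lay 18 of 26 and 19 of 27 peaks in CBE_2, and 26 of 38 and 26 of 37 in WT. These distal peaks held 70.4% and 71.8% of the covered bases in CBE_2 and 70.1% and 72.6% in WT, so the lines had nearly the same balance. Of the 19 shared regions 13 were distal. Neighbouring shared regions were 0.245 to 212.8 kb apart, with a median of 46.0 kb.

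Grouping regions no more than 50 kb apart gave 11 clusters, and 2 of them held 11 of the 19 shared regions. The larger, from 49780013 to 49862597, spanned 82.6 kb and held 7 shared regions among 13, with 8 and 8 peaks in CBE_2 and 13 and 10 in WT. The other, from 49450468 to 49605129, spanned 154.7 kb and held 4 among 10, with 6 and 7 peaks in CBE_2 and 9 and 10 in WT.

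The strongest regions lay in these clusters, with a single exception. The widest region of the stretch, 1854 bp at 49563947 to 49565800, reached folds of 9.56 and 10.7 in CBE_2, against 14.3 and 15.2 in WT. Its neighbour at 49553983 to 49555009 had folds of 9.69 and 8.80 in CBE_2, against 13.7 and 13.2 in WT. The folds at 49603337 to 49604377 were 6.87 and 8.70 in CBE_2 and 10.6 and 10.5 in WT. These 3 lay within 50.4 kb. In the distal cluster, the folds at 49840816 to 49841526 were 9.81 and 9.56 in CBE_2, against 13.1 and 12.6 in WT. The exception, at 48990129 to 48990539 in the proximal part, was 411 bp wide and had folds of 7.48 and 6.44 in CBE_2 and 8.98 and 8.90 in WT. All 5 were lower in rank in both CBE_2 libraries than in both WT libraries. Of all 62351 regions present in the 4 lists 48.4% had this order, so it is not read as particular to these 5. None of the regions of the stretch was wider than 2 kb.

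The median peak of the stretch was narrower and weaker than the median of its list in all 4 libraries, a difference that was not tested. Their median width was 390 and 328 bp in CBE_2, against 464 and 459 bp over the whole lists, and 369 and 339 bp in WT, against 445 and 446 bp. Their median fold was 3.92 and 3.54 in CBE_2 (4.41 and 4.29 over the lists) and 3.79 and 3.41 in WT (4.11 and 4.28 over the lists). The 75th percentile of the list or higher was reached by 3 and 4 of the peaks in CBE_2, and by 6 in each WT library. The 19 shared regions had a median width of 612 bp, and the remaining 25 a median of 338 bp.

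The strength of the shared regions in CBE_2 and WT was not used to choose the stretch. These 19 passed the threshold in all 4 libraries, so they stand for the stronger members. Their median percentile was 48.2 and 52.7 in CBE_2, against 62.5 and 61.0 in WT. Both CBE_2 libraries were lower than both WT libraries, by 11.3 points in the mean of the 2 medians. An exact two-sided permutation test over the 4 libraries gave p = 0.33, the smallest it can give, so this design cannot pass 0.05. Over all 62351 regions present in the 4 lists the medians were 64.4 and 65.4 in CBE_2, and 70.9 and 68.7 in WT.

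Region by region, both CBE_2 libraries ranked below both WT libraries in 13 of the 19. Across the genome 48.4% of the regions present in the 4 lists did so. The reverse held for 3 of the 19, against 19.2% of all, and the lines overlapped in 3. The median difference, CBE_2 minus WT, was -9.14 points in the stretch, against -2.46 points over all regions of the 4 lists. Within a line, the 2 libraries differed by a median of 5.59 points in CBE_2 and 3.23 points in WT.

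**Figure D4:**
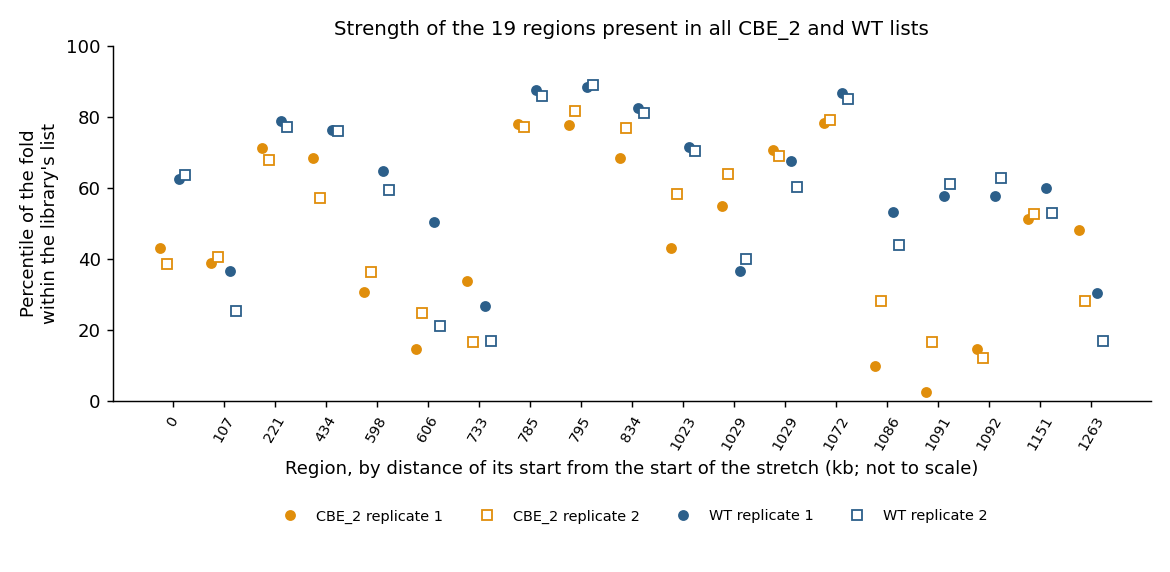
Each position on the horizontal axis is 1 of the 19 regions present in all CBE_2 and WT lists, ordered along the stretch, and the vertical axis is the percentile of its fold within each library's list, with filled circles for replicate 1 and open squares for replicate 2. CBE_2 points lie below WT points in 13 regions, with the widest separation at the regions that start 1091 and 1092 kb into the stretch.

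The widest separations lay side by side in the distal cluster. At 49859793 to 49860226 the percentiles were 2.40 and 16.5 in CBE_2, against 57.8 and 61.0 in WT. At 49861387 to 49862597, a region named after its values were seen, they were 14.4 and 12.1 in CBE_2 and 57.8 and 62.7 in WT. At 49855333 to 49855911 they were 9.77 and 28.0 in CBE_2 and 53.1 and 43.9 in WT. The 3 regions lay within 7.27 kb. The means of the lines differed, CBE_2 minus WT, by -50.0, -47.0 and -29.6 points in that order, each more than the gap between the libraries of either line.

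A neighbouring pair in the same cluster went the other way, and was also picked out after its values were seen. At 49797610 to 49797928 the percentiles were 54.9 and 64.0 in CBE_2, against 36.7 and 39.8 in WT. At 49798174 to 49799927 they were 70.7 and 68.9 in CBE_2 and 67.5 and 60.2 in WT. The other region with higher ranks in CBE_2 lay near the proximal end, at 48876355 to 48876720, with percentiles of 38.8 and 40.5 in CBE_2 and 36.7 and 25.2 in WT. At the last region of the stretch the libraries of the lines overlapped, with percentiles of 48.2 and 28.0 in CBE_2 and 30.4 and 16.8 in WT.

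Chromosome 10 as a whole held 5.29% and 5.28% of the CBE_1 peaks, 5.81% and 5.82% of the CBE_2 peaks, and 6.73% and 6.71% of the WT peaks. The order CBE_1, CBE_2, WT of the chromosome was also that of the peak counts in the stretch, in both 1 Mb flanks and in the length of the lists.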

How the data were processed

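ATAC-seq of 6 libraries from 3 mouse pro-B cell lines was used, with 1 peak list per library. The submitters' processing notes list Trimmomatic, Bowtie2, SAMtools, Picard and build mm9, with no versions. How peaks were called, and whether reads were shifted for the transposase, is not given in the sources used here. The deposited lists give a score, a fold over background (a ratio), −log10 p-values and q-values, and a summit, as the authors made them. The score, the p-value and the summit were not used further. A percentile is the average rank of a peak's fold in its list, as a percentage of the list, and a region takes its highest peak. Replicates are numbered in accession order. The merging was tested on simulated data. The members, gene and region rules were chosen with earlier results of these data known. Named regions are the 5 strongest and 2 weakest shared regions, the first and last, those wider than 2 kb, and the 3 nearest CBE_1 regions on each side. Planned lists of kainate receptor and marker genes were not used, since no mm9 annotation was at hand. Positions are 1-based. Python 3.11.15 with pandas 2.3.3 and numpy 2.4.6 was used. Alternatives were the better 50% of each list by −log10 q, lists cut to 72318 peaks, another overlap rule, other ranks and leaving out each library.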

Additional observations from a re-analysis of the deposited data

How the results depend on the processing

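The Grik2 stretch had no CBE_1 peak in the full lists. Keeping the better 50% of each list, or lists of the same length, only removes peaks, so that absence could not change. The gap stayed at 4579 kb in both, and between 4579.3 and 4579.5 kb without either CBE_1 library. With the better 50% of each list CBE_2 had 11 and 12 peaks in the stretch and WT 18 and 14, and 8 regions were shared by the 4 lists. With lists of the same length CBE_2 had 22 and 19 peaks and WT 22 and 20, so that the lower count of CBE_2 against WT held no longer, and 12 regions were shared. Both settings keep fewer weak peaks by construction. Joining peaks only where they overlapped by at least 50% of the shorter one left 19 shared regions, and leaving out each library gave 19 to 21. By regions in at least 1 of the 4 lists, the gap ranked 4 among CBE_1 gaps. Ranking by −log10 q gave 13 regions with CBE_2 below WT, and ranking within the shared regions gave 12. The shares over all regions under these rankings are not given here, so the counts have no background beside them. Leaving out each CBE_2 or WT library gave 13 to 16 of 19 to 21 regions, where the share over all regions was 53.0% to 60.1%. No paired analysis was possible because the labels give no replicate numbers that the lines share. Read depth is unknown, so a weak peak missing from a list may fall below its threshold.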
